A study of Oryctolagus cuniculus with 17 samples.

Results

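The circadian clock genes PER1, PER2, CRY1, CRY2, CLOCK, NR1D1, NR1D2 and TEF were followed in the lungs of preterm rabbit pups kept in hyperoxia or in normoxia. They were taken by human gene name from a list of 10 clock genes. Of that list, 8 had a row in the count table of 13827 rows, and PER3 and DBP were not analysed here. All 8 were single-gene loci and all 8 passed the filter on low counts, among 13142 rows tested.

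The circadian clock is a feedback loop present in nearly every cell. CLOCK, or its relative NPAS2, pairs with ARNTL (BMAL1) and switches on the PER and CRY genes, whose proteins return to the nucleus and block that pair. The same pair drives NR1D1 and NR1D2 (REV-ERB alpha and beta), repressors that act on ARNTL, and the PAR bZIP factors DBP, TEF and HLF, which carry the rhythm to output genes and share their binding sites with the repressor NFIL3. In the lung the clock is known to take part in inflammation and in the response to glucocorticoids, and most of its transcripts rise and fall over the day.

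The 17 samples were right-lung homogenates of New Zealand White pups, delivered by C-section on gestation day 28. All pups were raised in incubators on a milk replacer, in 95% oxygen (hyperoxia, HT) or 21% oxygen (normoxia, NT). Lungs were collected on postnatal days 3, 5 and 7, with 3 samples in each of the groups HT3, HT7, NT3, NT5 and NT7 and 2 in HT5. Total counts ranged from 14508362 to 19961087 per sample over all rows, and from 13123731 to 18111086 with each locus counted once. Nothing in the labels says which samples came from the same litter. The hour of harvest and the light cycle are not given in the sources used here, and their part in the values below was not tested.

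Values are CPM (counts per 1000000 counts, scaled by the trimmed mean of M-values, TMM), with each sample given in the order of its replicate number. Differences are log2 fold changes of hyperoxia over normoxia on the same day. Their standard error (SE) and 95% interval were derived from the log2 fold change and F statistic of edgeR's quasi-likelihood fit over all 17 samples. A gene was called where the p-value, adjusted by Benjamini-Hochberg over the 13142 rows, was under 0.05. The lung label was checked on 4 epithelial markers, SFTPC, SFTPB, SFTPA1 and AGER, whose summed level was 12600 to 32200 CPM in each sample. HT3 replicate 2 and HT5 replicate 1 stood apart in skeletal muscle markers, at 393 and 360 CPM against 57.3 to 113 CPM in the other samples. Most of the sum in the other samples was MYLPF, at 53.9 to 108 CPM, whose locus is shared with ZNF48. HT3 replicate 3 was also raised in ACTA1 and MYH8, at 16.9 and 15.2 CPM. The remaining samples had at most 6.92 and 4.55 CPM of these genes. None of the clock genes was called on day 3 with all samples or without HT3 replicate 2, so this count cannot show what that sample changes. Without HT5 replicate 1 the same 3 clock genes were called on day 5, but HT5 was then a single sample, assumed to vary like the other groups, as in every fit without an HT5 sample.

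None of the 8 clock genes was called on day 3, 3 were called on day 5 and 5 on day 7. By day 7, CRY1 was higher in hyperoxia, and PER2, CRY2, NR1D2 and TEF were lower. CLOCK, PER1 and NR1D1 were not called on any day. The day 3 count of 0 stood against 1.03% of all rows called, and at an unadjusted p under 0.05 it was 1 of 8, CRY1. At that unadjusted threshold 15.3% of all rows passed, and DESeq2 also called none of the 8. On day 5 the 3 of 8, 1 higher and 2 lower, stood against 31.3% of all rows, 15.9% higher and 15.4% lower. On day 7 the 5 of 8, 1 higher and 4 lower, stood against 47.4%, 23.7% higher and 23.7% lower. The median log2 fold change of the 8 genes was 0.25 on day 3, -0.14 on day 5 and -0.29 on day 7, beside medians of 0.00, -0.02 and -0.01 over all rows. The study's own stricter rule, an adjusted p under 0.01 with a log2 fold change beyond 2 in either direction, was met by none of the 8 on any day, against 0.0533%, 1.58% and 4.59% of all rows. At an adjusted p under 0.05 the counts per day by DESeq2 were the same.

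**Figure D1:**
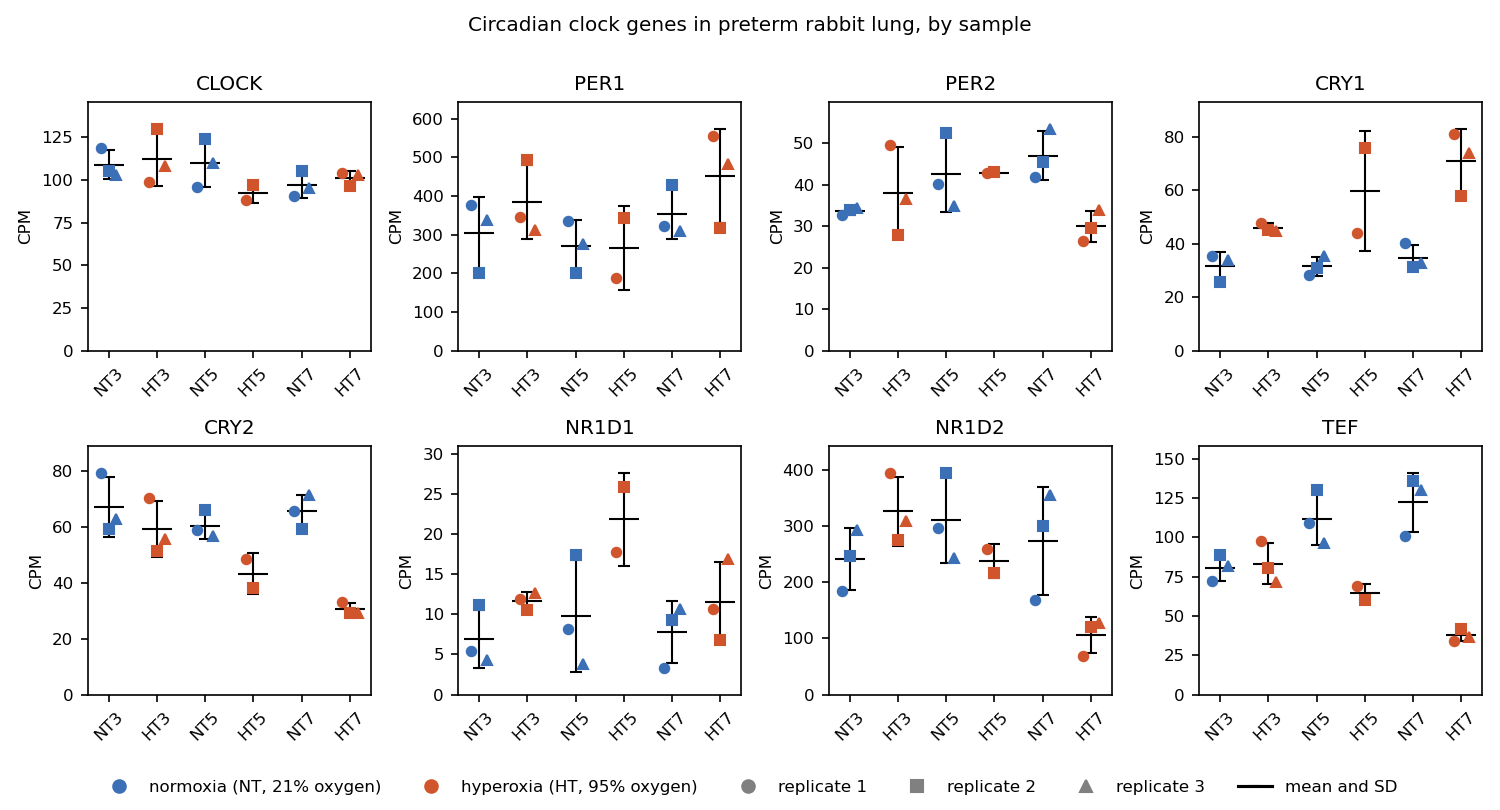
CPM of the 8 clock genes in each sample, by group on the horizontal axis (NT normoxia, blue; HT hyperoxia, red; the number is the postnatal day), with replicate numbers as symbols and the mean with SD in black. The 8 hyperoxia samples of CRY1 lie at 43.9 to 81.2 CPM and the 9 normoxia samples at 25.8 to 40.3 CPM, while HT7 lies lowest for CRY2, NR1D2 and TEF.

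CLOCK, the DNA-binding activator of the loop (ENSOCUG00000022350, OryCun2.0 chromosome 15, 93345928 to 93399734, plus strand), varied least of the 8 genes between samples of a group. The normoxia samples read 119, 105 and 103 CPM on day 3, 96, 124 and 110 CPM on day 5 and 90.7, 105 and 95.1 CPM on day 7. The hyperoxia samples read 98.8, 130 and 108 CPM on day 3, 88.2 and 96.8 CPM on day 5 and 104, 96.6 and 103 CPM on day 7. The groups overlapped on every day, and the whole range was 88.2 to 130 CPM. The log2 fold change was 0.04 on day 3, with a 95% interval of -0.21 to 0.30 (adjusted p = 0.901 by edgeR). On day 5 it was -0.25, with an interval of -0.54 to 0.04, and on day 7 it was 0.06, with an interval of -0.19 to 0.31. Averaged over the 3 days the difference was -0.05, with an interval of -0.20 to 0.10.

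PER1, a repressor of the CLOCK and ARNTL pair that is also an immediate early gene and a glucocorticoid target (ENSOCUG00000026333, chromosome 19, 11100588 to 11109342, plus strand), spread widely inside every group. In normoxia it read 377, 200 and 339 CPM on day 3, 336, 201 and 276 CPM on day 5 and 323, 429 and 310 CPM on day 7. In hyperoxia it read 345, 494 and 313 CPM on day 3, 188 and 342 CPM on day 5 and 556, 318 and 482 CPM on day 7. The lowest sample was HT5 replicate 1 and the highest HT7 replicate 1, and the groups overlapped on all 3 days. The differences of 0.33, -0.03 and 0.35 on days 3, 5 and 7 were not called (adjusted p = 0.636, 0.953 and 0.341 by edgeR). Their 95% intervals reached from -0.29 to 0.96, from -0.73 to 0.67 and from -0.27 to 0.98. The sign on day 5 rested on single samples, since the value was 0.34 without HT5 replicate 1 and 0.15 without NT5 replicate 1.

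PER2, the second period repressor (ENSOCUG00000000215, scaffold GL018969, 278977 to 301130, minus strand), fell in hyperoxia on day 7 alone. HT7 read 26.4, 29.6 and 33.9 CPM and NT7 read 41.9, 45.5 and 53.5 CPM, so that the groups did not overlap, as for 54.5% of all rows on day 7. The log2 fold change was -0.65 (SE 0.19, adjusted p = 0.0112 by edgeR). The call was lost without NT7 replicate 3, at -0.55 (adjusted p = 0.051 by edgeR). On day 5 the hyperoxia samples read 42.9 and 43 CPM and lay within the normoxia samples, at 40.3, 52.6 and 34.8 CPM. On day 3 they read 49.7, 27.9 and 36.5 CPM around normoxia values of 32.7, 34 and 34.5 CPM. The log2 differences were 0.17 on day 3 and 0.01 on day 5 (adjusted p = 0.72 and 0.968 by edgeR).

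CRY1, the cryptochrome known as the strongest repressor of the loop (ENSOCUG00000013721, chromosome 4, 89377279 to 89469979, plus strand), was the only one of the 8 genes called higher in hyperoxia on days 5 and 7. HT7 read 81.2, 57.9 and 74.1 CPM against 40.3, 31.2 and 32.6 CPM in NT7. All HT7 samples lay above all NT7 samples, and the log2 fold change was 1.03 (SE 0.19, adjusted p = 0.000513 by edgeR), a 95% interval of 0.62 to 1.44. HT5 read 43.9 and 75.7 CPM against 28.1, 30.9 and 35.4 CPM in NT5, a log2 fold change of 0.93 (SE 0.21, adjusted p = 0.00465 by edgeR). The day 5 value rested on HT5 replicate 2, since without it the difference was 0.46 (adjusted p = 0.187 by edgeR) and without HT5 replicate 1 it was 1.27. HT3 read 47.8, 45.2 and 44.7 CPM against 35.4, 25.8 and 33.8 CPM in NT3. On day 3 the groups also did not overlap, as for 26.7% of all rows, and the difference of 0.54 was not called (unadjusted p = 0.0134, adjusted p = 0.193 by edgeR). Every hyperoxia sample of CRY1 lay above every normoxia sample across the 3 days. This was not particular to CRY1, and the share of all rows that separate so was not computed. NFIL3 read 25.7 CPM or more in hyperoxia and 23.4 CPM or less in normoxia. CIART separated downward, at 109 CPM or less against 122 CPM or more.

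CRY2, the paralogue of CRY1 and also a repressor (ENSOCUG00000025433, chromosome 1, 185198656 to 185221193, plus strand), moved the other way. HT7 read 33.2, 29.1 and 29.1 CPM against 65.8, 59.4 and 71.3 CPM in NT7, and the groups lay far apart. The log2 fold change was -1.10 (SE 0.15, adjusted p = 4.15e-05 by edgeR). HT5 read 48.5 and 38 CPM, below the 58.7, 66 and 56.7 CPM of NT5. The day 5 difference was -0.48 (SE 0.16, adjusted p = 0.0368 by edgeR). That call was lost with only the day 5 samples in the fit (-0.47, adjusted p = 0.0871 by edgeR) and without HT5 replicate 2 (-0.33) or NT5 replicate 1, 2 or 3 (-0.50, -0.41 and -0.53). HT3, at 70.4, 51.2 and 55.8 CPM, overlapped NT3, at 79.3, 59.2 and 62.9 CPM, and the difference of -0.18 was not called.

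NR1D1, the heme-sensing repressor REV-ERB alpha (ENSOCUG00000009732, chromosome 19, 41290746 to 41298450, minus strand), had the widest spread of the 8 genes. Its normoxia samples read 5.43, 11.1 and 4.27 CPM on day 3, 8.18, 17.4 and 3.82 CPM on day 5 and 3.35, 9.31 and 10.7 CPM on day 7. The hyperoxia samples read 11.9, 10.5 and 12.7 CPM on day 3, 17.7 and 25.9 CPM on day 5 and 10.7, 6.83 and 16.9 CPM on day 7. The lowest and highest normoxia samples, NT7 replicate 1 and NT5 replicate 2, differed 5.21-fold. Counts were low, between 49 and 479 reads a sample. The differences of 0.75, 1.16 and 0.56 on days 3, 5 and 7 were not called (adjusted p = 0.521, 0.13 and 0.397 by edgeR). The HT5 samples lay above NT5, as 55.7% of all rows were without overlap that day, and the 95% interval was -0.05 to 2.36. Without NT5 replicate 2, its highest normoxia sample, the day 5 difference was 1.88 and passed (adjusted p = 0.0302 by edgeR).

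NR1D2, the related repressor REV-ERB beta (ENSOCUG00000009329, chromosome 14, 10293402 to 10326792, plus strand), fell on day 7. HT7 read 68.8, 120 and 128 CPM and NT7 read 168, 300 and 355 CPM, without overlap. The log2 fold change was -1.38 (SE 0.29, adjusted p = 0.00131 by edgeR), a 95% interval of -2.0 to -0.76. On day 3 the samples read 395, 275 and 309 CPM in hyperoxia and 184, 247 and 294 CPM in normoxia. On day 5 they read 260 and 217 CPM in hyperoxia and 296, 395 and 244 CPM in normoxia. Both days overlapped, with differences of 0.43 and -0.38 that were not called (adjusted p = 0.491 and 0.382 by edgeR).

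TEF, the PAR bZIP activator that carries the rhythm to output genes (ENSOCUG00000012866, scaffold GL018734, 1047824 to 1071460, minus strand), had the largest day 7 difference of the 8 genes. HT7 read 34.4, 41.6 and 36.9 CPM against 101, 136 and 130 CPM in NT7, far from overlap. The log2 fold change was -1.70 (SE 0.15, adjusted p = 2.63e-06 by edgeR), a 95% interval of -2.03 to -1.37. HT5 read 68.8 and 60.5 CPM against 109, 130 and 96.6 CPM in NT5, and the difference of -0.79 was called (SE 0.17, adjusted p = 0.00351 by edgeR). Without HT5 replicate 2 it was -0.72 (adjusted p = 0.0616 by edgeR). HT3 read 97.6, 80.5 and 71.8 CPM and overlapped NT3, at 72.1, 88.7 and 81.7 CPM, with a difference of 0.04.

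**Figure D2:**
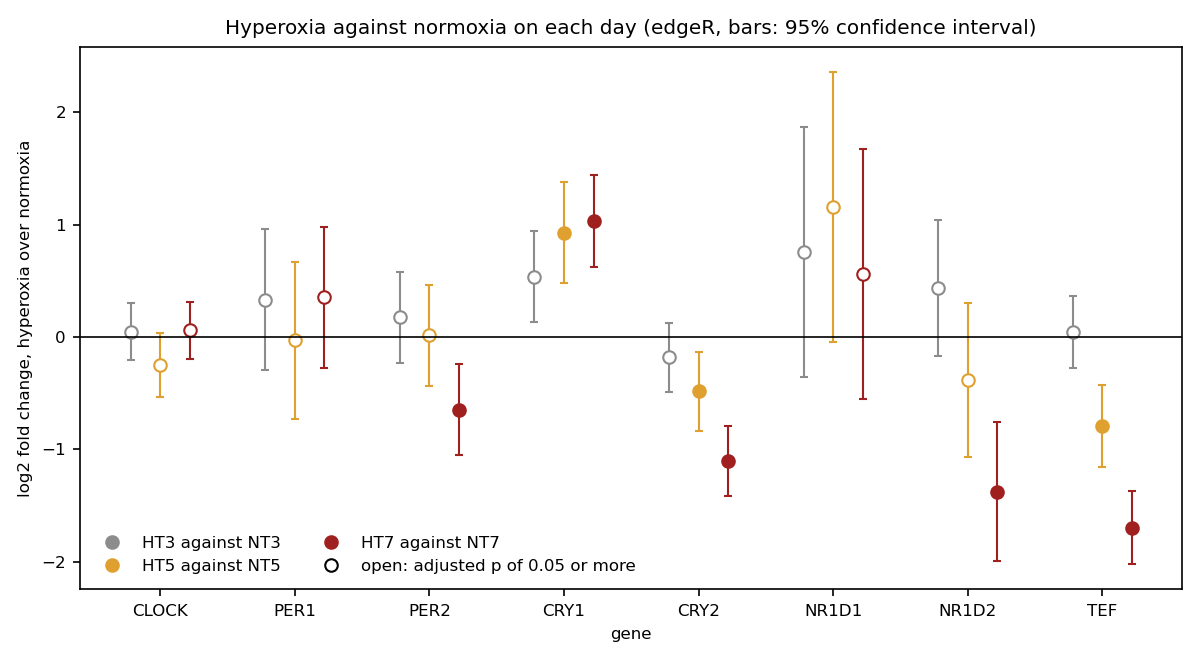
Log2 fold change of hyperoxia over normoxia for each of the 8 clock genes (horizontal axis) on days 3 (grey), 5 (yellow) and 7 (dark red). Bars are 95% confidence intervals derived from edgeR's F statistic, and points are filled where the adjusted p was under 0.05. On day 7 CRY1 stands at 1.03, and PER2, CRY2, NR1D2 and TEF stand between -0.65 and -1.70.

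The day 7 effect was then compared with the day 3 effect in the same fit. It was lower for 4 of the 8 genes and higher for none, against 20.5% of all rows called, 11.0% lower and 9.52% higher. The difference between the effects was -1.81 (SE 0.41) for NR1D2 and -1.74 (SE 0.21) for TEF (adjusted p = 0.00781 and 0.000415 by edgeR). For CRY2 it was -0.92 (SE 0.21, adjusted p = 0.00774 by edgeR). PER2 gave -0.82 (SE 0.27, adjusted p = 0.0424 by edgeR). The PER2 call was lost in 9 of 12 fits without 1 sample, those without replicates 1 and 3 of HT3, 1 and 2 of HT7, 1, 2 and 3 of NT3 and 2 and 3 of NT7, with values from -0.58 to -0.85. For CRY1 the effect did not differ detectably between the days, at 0.50 (adjusted p = 0.204 by edgeR).

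Averaged over the 3 days, 5 of the 8 genes were called, 2 higher and 3 lower, against 54.4% of all rows, 26.9% higher and 27.5% lower. The mean effect was 0.83 (SE 0.11, adjusted p = 3.28e-05) for CRY1, -0.59 (SE 0.09, adjusted p = 6.55e-05) for CRY2 and -0.82 (SE 0.09, adjusted p = 6e-06) for TEF by edgeR. NR1D1 reached 0.82 (SE 0.31, adjusted p = 0.0355 by edgeR). NR1D2 reached -0.44 (SE 0.17, adjusted p = 0.0407 by edgeR). The NR1D1 call was lost in 9 of 17 fits without 1 sample, with values from 0.69 to 0.82: those without HT3 replicates 1 or 3, HT5 replicate 2, HT7 replicate 3, NT3 replicates 1 or 3, NT5 replicates 1 or 3, or NT7 replicate 1. That of NR1D2 was lost in 10 of 17, with values from -0.36 to -0.49: those without HT3 replicates 2 or 3, HT5 replicates 1 or 2, HT7 replicate 1, NT3 replicates 2 or 3, NT5 replicate 2, or NT7 replicates 2 or 3.

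Postnatal age was tested inside each oxygen condition. Among NT3, NT5 and NT7, none of the 8 genes and 0 of all 13142 rows were called by edgeR, and DESeq2 called none of the 8. At an unadjusted p under 0.05 there were 787 rows, 5.99%, and 1 clock gene, TEF, whose means were 80.8 ± 8.36, 112 ± 16.9 and 122 ± 18.8 CPM (SD, n = 3 each, unadjusted p = 0.00341, adjusted p = 0.472 by edgeR). Among HT3, HT5 and HT7, 4 of the 8 were called against 41.0% of all rows. TEF fell from 83.3 ± 13.1 CPM (SD, n = 3) on day 3 to 64.7 ± 5.85 CPM (n = 2) on day 5 and 37.6 ± 3.66 CPM (n = 3) on day 7 (adjusted p = 0.000212 by edgeR). NR1D2 went from 326 ± 61.8 to 239 ± 30.7 and 106 ± 32.1 CPM, and CRY2 from 59.1 ± 10 to 43.3 ± 7.47 and 30.5 ± 2.37 CPM (adjusted p = 0.00165 and 0.000606 by edgeR, same n). CRY1 went from 45.9 ± 1.68 to 59.8 ± 22.5 and 71.1 ± 11.9 CPM (adjusted p = 0.0421 by edgeR). The CRY1 call was lost in 5 of 8 fits without 1 sample, those without HT3 replicate 1, 2 or 3 or HT7 replicate 1 or 3 (adjusted p = 0.0836, 0.109, 0.105, 0.129 and 0.096 by edgeR), and with median-ratio size factors (adjusted p = 0.0512 by edgeR). PER2 was not called (adjusted p = 0.121 by edgeR), except without HT3 replicate 2 (adjusted p = 0.0482 by edgeR).

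The counts of related clock genes were also set against each other inside each sample. These are ratios of counts, not divided by transcript length, so only their course across samples can be read. The ratio of CRY1 to CRY2 counts lay between 0.436 and 0.625 in the 9 normoxia samples, with a median of 0.478. It lay at 0.68 to 0.884 in HT3, at 0.904 and 1.99 in HT5 and at 1.99 to 2.54 in HT7. No hyperoxia sample of any day fell within the normoxia range.

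The ratio of NFIL3 to TEF counts, the repressor over the activator of the same sites, lay at 0.0832 to 0.286 in normoxia. In hyperoxia it was 0.263 to 0.396 on day 3, 0.533 and 0.921 on day 5 and 1.83 to 3.65 on day 7. The HT3 range overlapped normoxia, and the later samples lay above it. The ratio of NR1D1 to NR1D2 counts was 0.0145 to 0.0449 in normoxia and 0.0303 to 0.0411 in HT3. It was 0.0679 and 0.119 in HT5 and 0.0568 to 0.155 in HT7, above all normoxia samples.

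**Figure D3:**
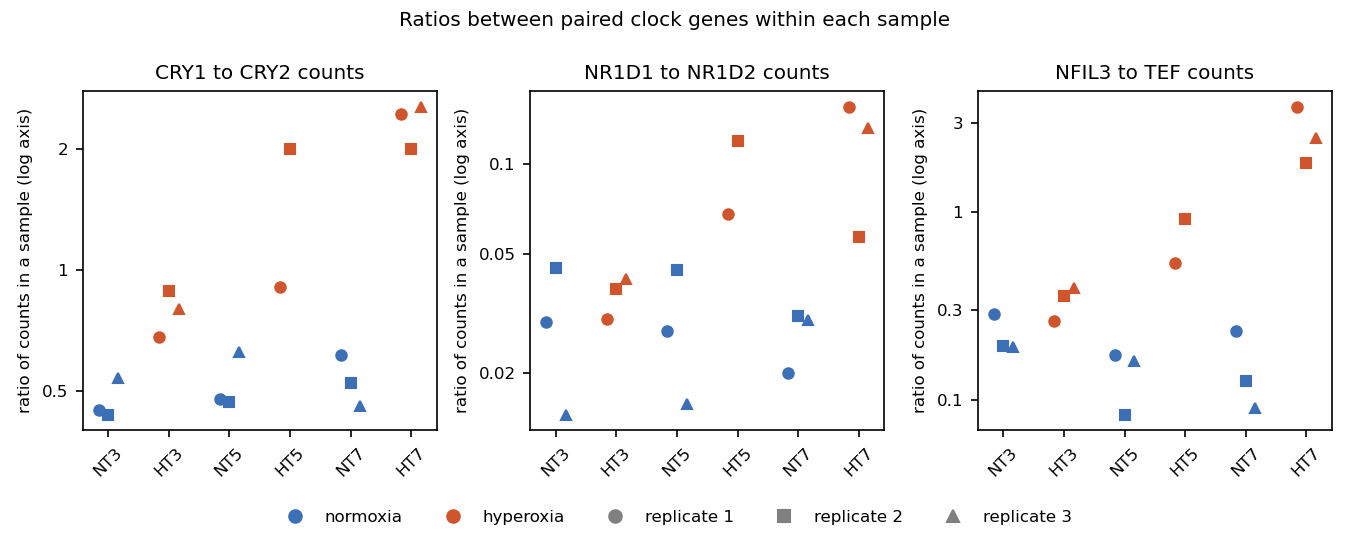
Ratio of counts in each sample on a logarithmic axis for CRY1 to CRY2, NR1D1 to NR1D2 and NFIL3 to TEF, by group. The HT5 and HT7 samples lie above all normoxia samples in each panel, and for CRY1 to CRY2 the HT3 samples do as well. The ratios restate differences of the single genes.

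The spread between samples of 1 group was compared among the genes. The within-group SD of log2 CPM was 0.734 for NR1D1, 0.412 for PER1 and 0.402 for NR1D2, against a median of 0.233 over all rows. Among 1001 rows of similar level, NR1D1 stood at the 95th percentile, PER1 at 94.8 and NR1D2 at 95.1. CRY1, PER2, TEF and CRY2 had SDs of 0.252, 0.245, 0.191 and 0.18, and CLOCK had 0.14, at percentile 38.1 of its level. The SD of NR1D1 was 0.905 in normoxia and 0.452 in hyperoxia, where that of PER1 was 0.44.

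Whether the other clock genes followed NR1D1 from sample to sample was tested inside each oxygen condition. In normoxia, NR1D2 had a positive relation with NR1D1 (Pearson's r = 0.736, exact permutation p = 0.0256, Spearman's rho = 0.767, p = 0.0214, n = 9). Without the 2 samples farthest from the median of NR1D1 the r of NR1D2 was 0.423, so this relation rested in large part on NT7 replicate 1 and NT5 replicate 2. CRY1 had a negative one (r = -0.725, exact permutation p = 0.0264, rho = -0.833, p = 0.00827, n = 9), with r = -0.732 without those samples. NPAS2 and ARNTL were partners added after the values had been seen. NPAS2 gave r = -0.716 (exact permutation p = 0.0289, rho = -0.633, p = 0.076, n = 9) and -0.44 without those samples. ARNTL gave r = -0.417 (exact permutation p = 0.257, rho = -0.267, p = 0.493, n = 9) and -0.195 without them. Over the 18 relations computed, the smallest Benjamini-Hochberg adjusted p was 0.173 for r and 0.149 for rho, so none passed.

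With the mean of each day taken out, the r in normoxia was 0.73 for NR1D2 and -0.777 for CRY1. It was 0.908 for TEF and 0.818 for PER2, whose pooled values were 0.589 and 0.597 (exact permutation p = 0.0981 and 0.093, n = 9). In hyperoxia the pooled r was 0.255 for NR1D2, 0.235 for CRY1, 0.148 for TEF and 0.58 for PER2. Their exact permutation p-values were 0.54, 0.568, 0.729 and 0.132 (n = 8). NR1D2, CRY1 and TEF were called for a difference among the hyperoxia days, so differences between days enter their pooled r. With the mean of each day taken out there, the r was 0.0316 for NR1D2, 0.661 for CRY1, -0.43 for TEF and 0.312 for PER2, so the values for CRY1 and TEF had the opposite sign to those in normoxia, and the difference between conditions was not tested. No p was computed for the values with day means taken out.

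**Figure D4:**
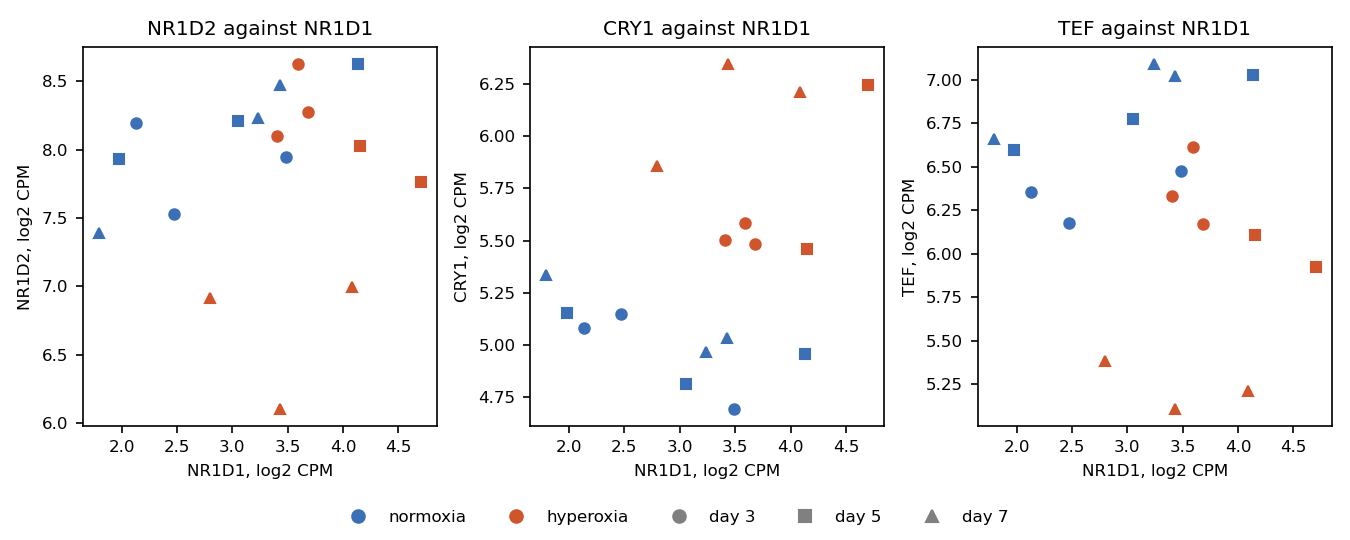
Log2 CPM of NR1D2, CRY1 and TEF against that of NR1D1, with 1 point per sample, normoxia blue, hyperoxia red, and the day as the symbol. The 9 normoxia samples give r = 0.736 for NR1D2 and r = -0.725 for CRY1, neither past the correction over 18 relations, and the HT7 samples stand apart from HT3 in all panels.

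Genes were ranked by their likeness to NR1D1, as Pearson's r of deviations from group means over the 17 samples, among 10767 rows. Among the highest were FAM222B (0.846), DMAC2L (0.842), TJP1 (0.831) and RRP8 (0.829). The most opposite were SPCS3 (-0.859), SLC22A17 (-0.845) and L1CAM (-0.84). Among the clock genes PER2 (0.559), TEF (0.536) and NR1D2 (0.534) came highest, at percentiles 97, 96.2 and 96.1 of all rows. ARNTL gave -0.318 and NPAS2 -0.403. All genes were read in the same 17 libraries, and these values are a description.

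A list of 28 further clock genes was read beside the 8, of which 23 were tested. The rows called were 0 on day 3, 11 on day 5 (6 higher, 5 lower) and 16 on day 7 (10 higher, 6 lower), beside the same 1.03%, 31.3% and 47.4% of all rows. At an unadjusted p under 0.05, 7 of the 23 passed on day 3, beside 15.3% of all rows. Medians over the list were 0.12, -0.06 and 0.18. In this list 3 genes met the study's stricter rule on day 7, NFIL3, BHLHE40 and CIART.

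ARNTL, the partner of CLOCK, read 31.4, 24.5 and 13.7 CPM in NT3, 11, 12.5 and 21.1 CPM in NT5 and 23.6, 21.2 and 10.5 CPM in NT7. It read 18.4, 38.7 and 21 CPM in HT3, 16.9 and 22.2 CPM in HT5 and 26.9, 29.5 and 27.7 CPM in HT7. HT7 lay above NT7, and the difference of 0.60 was not called (adjusted p = 0.185 by edgeR). NPAS2, which can stand in for CLOCK, read 27.2, 24.7 and 19.5 CPM in HT7 against 8.61, 6 and 4.73 CPM in NT7. It was called higher on day 7, at 1.88 (SE 0.38, adjusted p = 0.000947 by edgeR), and on day 5, at 1.22 (adjusted p = 0.0348 by edgeR). On day 5 NPAS2 read 7.77 and 19.5 CPM in HT5 against 6.42, 3.88 and 7.29 CPM in NT5. HT5 replicate 2 was far the higher, and the NPAS2 difference was not recomputed without it.

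Of the ROR activators, which oppose the REV-ERB repressors, RORA was not called on any day (0.41, 0.06 and -0.24). NFIL3, the repressor opposite TEF, read 126, 76.1 and 92 CPM in HT7 against 23.4, 16.9 and 11.7 CPM in NT7. It rose by a log2 fold change of 1.62 on day 5 and 2.5 (SE 0.27) on day 7 (adjusted p = 0.000999 and 7.76e-06 by edgeR). HLF, the PAR bZIP relative of TEF, read 14.1, 14.7 and 16.2 CPM in HT7 against 34, 37.6 and 48.4 CPM in NT7. It fell as TEF did, at -0.64 on day 5 and -1.42 on day 7 (adjusted p = 0.0176 and 1.6e-05 by edgeR).

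BHLHE40 (DEC1), a repressor that competes for the sites of the CLOCK pair, read 234, 101 and 137 CPM in HT7 against 41.3, 33.4 and 36.1 CPM in NT7. It rose by 1.52 on day 5 and 2.09 (SE 0.35) on day 7 (adjusted p = 0.00753 and 0.000247 by edgeR). Its relative BHLHE41 was called on day 7, at 1.0 (adjusted p = 0.021 by edgeR). CIART, a further repressor of the loop, read 34.5, 51.6 and 36.2 CPM in HT7 against 174, 168 and 148 CPM in NT7. It fell by 1.37 on day 5 and by 2.0 on day 7 on the log2 scale (adjusted p = 0.000586 and 3.91e-06 by edgeR), and its locus is shared with C1orf54, so the source of its reads is uncertain.

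**Figure D5:**
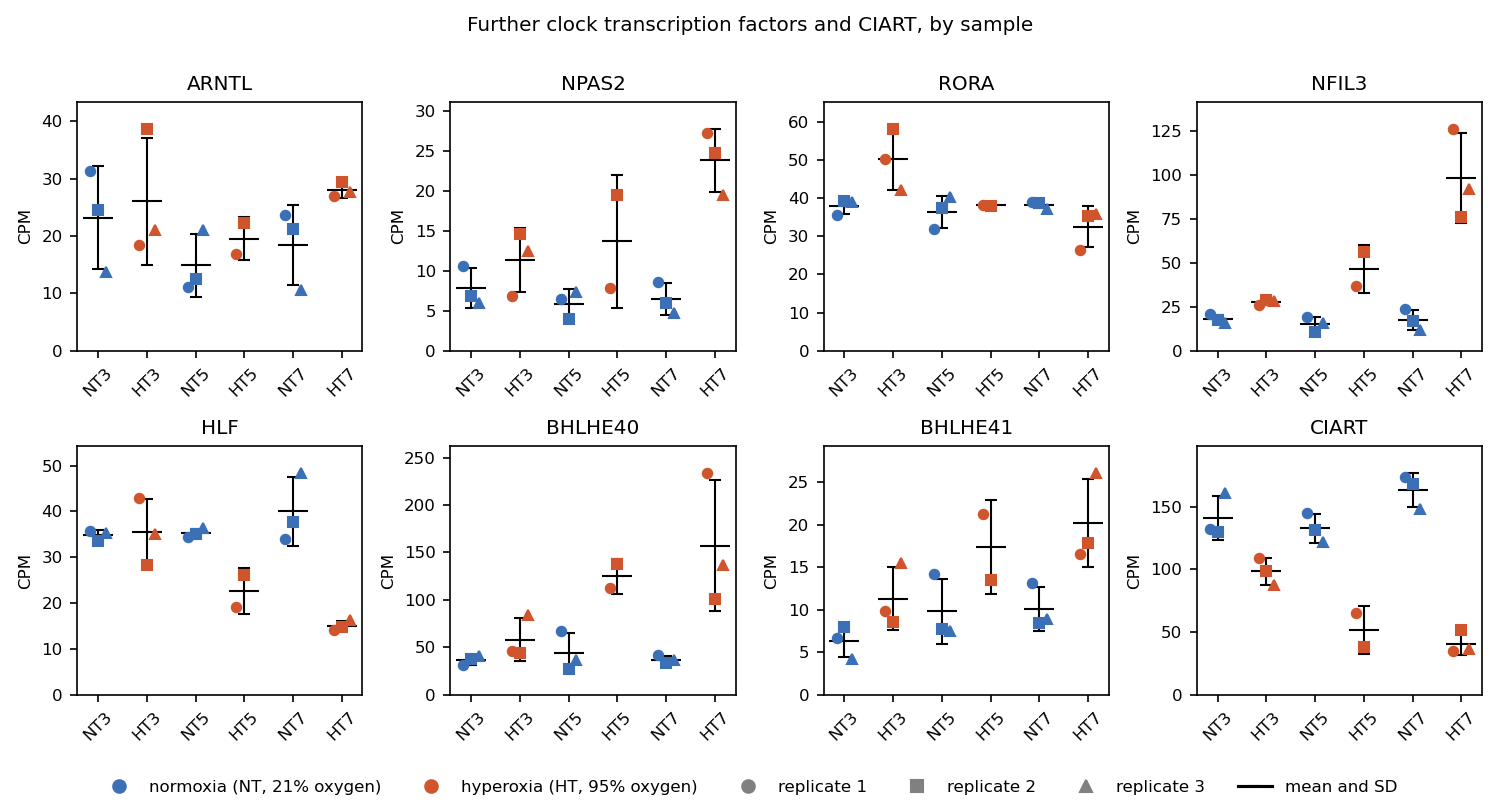
CPM of 8 further clock genes in each sample, by group, with replicate numbers as symbols and the mean with SD in black. NFIL3, BHLHE40 and NPAS2 have their highest group means in HT7, and HLF and CIART have their lowest there.

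Among the regulators of clock protein stability, BTRC, which marks PER proteins for breakdown, was lower on day 7, at -0.72 (adjusted p = 0.00015 by edgeR). The ubiquitin protease USP2 was higher, at 1.25 (adjusted p = 0.0124 by edgeR), and so was the PER kinase CSNK1D, at 0.27 (adjusted p = 0.0408 by edgeR). Of the genes that follow the clock in many tissues, NAMPT, which makes NAD, rose by 0.96 on day 5 and 0.77 on day 7 (adjusted p = 0.00122 and 0.00101 by edgeR). The cell cycle kinase WEE1 rose by 0.74 on day 7 (adjusted p = 0.0189 by edgeR). POR, the electron donor of cytochrome P450 enzymes, was lower that day, at -0.38 (adjusted p = 0.0168 by edgeR).

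Markers of other cell types and of the epithelium moved with the same comparison. AGER, a marker of alveolar type 1 cells whose locus is shared with PBX2, was lower on days 5 and 7, at -1.27 and -2.04 (adjusted p = 0.00804 and 5.54e-05 by edgeR). The surfactant gene SFTPA1 was higher on day 7, at 1.17 (adjusted p = 0.0229 by edgeR). The summed level of 3 endothelium markers was 551 to 978 CPM in HT7 against 1370 to 1710 CPM in NT7, 801 to 811 CPM in HT5 against 1420 to 1730 CPM in NT5, and 1330 to 1780 CPM in HT3 against 1720 to 1990 CPM in NT3. Its members differed, since on day 7 CDH5 and KDR fell by 1.96 and 2.60 on the log2 scale (adjusted p = 3.92e-07 and 5.71e-06 by edgeR), and PECAM1 was not called, at -0.05 (adjusted p = 0.87 by edgeR). That of 4 macrophage markers was 1440 to 2230 CPM in HT7 against 767 to 1020 CPM in NT7, and 1430 to 1540 CPM in HT5 against 703 to 1140 CPM in NT5. On day 3 it was 741 to 1100 CPM in HT3 against 689 to 822 CPM in NT3. Most of this sum was CD68, at 1180 to 2000 CPM in HT7, whose locus is shared with EIF4A1 and other genes, so the source of its reads is uncertain. Of the other macrophage markers CD163 was higher on day 7, at 1.49 (adjusted p = 0.026 by edgeR), MARCO was lower, at -2.19 (adjusted p = 0.00331 by edgeR), and CSF1R was not called, at 0.32 (adjusted p = 0.536 by edgeR).

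The 4 neutrophil markers summed to 895 to 1250 CPM in HT3 against 258 to 616 CPM in NT3, without overlap. Taken singly, S100A8, S100A9, CSF3R and CXCR2 were not called on day 3 (adjusted p = 0.287, 0.169, 0.14 and 0.0909 by edgeR). The sums were 574 to 837 CPM in HT5 against 139 to 602 CPM in NT5 and 860 to 2750 CPM in HT7 against 794 to 964 CPM in NT7, and both days overlapped. Most of each sum was S100A8 and S100A9. CSF3R and CXCR2 overlapped on day 7 but not on day 5, when 55.7% of all rows did not overlap. On day 5 CSF3R read 102 to 144 CPM in HT5 against 39.7 to 84.4 CPM in NT5. CXCR2 read 19.3 to 25.5 CPM against 7.89 to 11.6 CPM. The summed level of 3 fibroblast markers, most of it COL1A1 and COL1A2, was lower in hyperoxia without overlap on day 3 (3850 to 4090 against 4870 to 5510 CPM) and day 5 (2540 to 3060 against 3990 to 4620 CPM) and overlapped on day 7 (3570 to 3930 against 3590 to 4970 CPM). The third marker, DCN, overlapped on all 3 days and was not called, with means of 57.9 against 55.8 CPM, 51 against 43.1 CPM and 116 against 64.5 CPM on days 3, 5 and 7. The 4 lymphocyte markers summed to 1.02 to 2.48 CPM in HT7 against 6.7 to 10.5 CPM in NT7, and the 2 erythroid markers to 43.2 to 63.5 CPM against 114 to 194 CPM. All 6 of these genes were called lower on day 7, for example CD79B at -2.36 and ALAS2 at -1.61 (adjusted p = 0.00174 and 0.00062 by edgeR). The part of these markers in the clock gene differences was not tested, and in these homogenates fewer cells of a type and less RNA per cell cannot be told apart.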

How the data were processed

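RNA was sequenced from right-lung homogenates of preterm rabbits (polyA RNA, TruSeq stranded libraries, NovaSeq, paired ends). The submitters' processing notes name FastQC, STAR 2.7.10a and the build OryCun2.0. The counting program is not given in the sources used here. The deposited table holds raw read counts per gene with human gene names, prepared by the authors without normalization. Of its 13827 rows, 434 loci repeat under several human names, and these repeats held 8.96 to 10.1% of counts. All sample columns were used, and groups came from the sample titles.

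Counts were analysed with edgeR 4.0.16 (R 4.3.3): filterByExpr (13142 rows kept), TMM factors (0.958 to 1.05), 1 mean per group over 17 samples, and the quasi-likelihood F test with Benjamini-Hochberg adjustment. Correlations were tested by exact two-sided permutation (scipy 1.17.1). Alternatives were DESeq2 1.42.0, median-ratio factors, no filter, 1 entry per locus, a larger prior count, the samples of 1 day, a replicate block and leaving out each sample. The tests were checked on simulated counts.

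Genes were named by list: the clock genes, the transcriptional clock genes ARNTL, NPAS2, RORA, NFIL3, HLF, BHLHE40, BHLHE41 and CIART whatever their p, and, from the further clock, glucocorticoid and temperature lists, genes with an adjusted p under 0.05 on any day. Those most like NR1D1 were the 5 highest and 3 lowest by r. A few genes that these rules name are not reported here, and counts over lists include them. The members and lists were chosen with earlier results of these data known.

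Replicate numbers are shared across groups. Deviations of same-numbered samples correlated at 0.166, 0.131 and 0.199 on day 3, at 0.264 and 0.141 on day 5 and at 0.174, 0.109 and 0.0695 on day 7, and the labels do not say what a number marks. With 3 pairs required, each over 0.1, only day 3 met the criterion for pairing, since day 5 has 2 pairs. No 2 replicates agreed within sampling noise. Nothing states that replicates came from separate litters, so p-values measure the spread between these samples. Where the study's text and labels differ on the lung side, the labels are followed.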

Additional observations from a re-analysis of the deposited data

Results flagged for a closer look

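The hyperoxia effect differed between day 7 and day 3, by the test of that difference in edgeR, in 4 of the 8 clock genes and in 8 of the 23 further clock genes, where 20.5% of all rows were called. The day 7 effect minus the day 3 effect was -0.82 for PER2 (adjusted p = 0.0424 by edgeR), -0.92 for CRY2 (adjusted p = 0.00774), -1.81 for NR1D2 (adjusted p = 0.00781) and -1.74 for TEF (adjusted p = 0.000415). Among the further genes it was 1.87 for NFIL3 and 1.43 for BHLHE40 (adjusted p = 0.00418 and 0.0489 by edgeR). It was -1.44 for HLF and -1.48 for CIART (adjusted p = 0.0017 and 0.00271 by edgeR). RORA gave -0.64, BTRC -0.54 and POR -0.5 (adjusted p = 0.0312, 0.0285 and 0.0473 by edgeR). RORA was not called on either day: it read 50.4, 58.3 and 42.3 CPM in HT3 against 35.7, 39.3 and 39 CPM in NT3, and 26.5, 35.3 and 36 CPM in HT7 against 39.2, 38.7 and 37.3 CPM in NT7. With at most 3 samples in a group, no sample was tested as an outlier.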

How the results depend on the processing

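Each count and value for the 8 clock genes was recomputed under the alternatives. The number called on day 5 was 3, from 0 to 3 when 1 sample was left out, with 0 without HT5 replicate 2. For the mean effect it was 5, from 3 to 5, with 3 without HT3 replicate 3, HT5 replicate 2 or NT3 replicate 3. The counts for day 3, day 7, the day 7 effect minus the day 3 effect and the 3 ages stayed within 1.5 times. The replicate block changed no count of calls (0, 3, 5, 5 and 4 for days 3, 5 and 7, the mean effect and the day 7 minus day 3 effect), and under the replicate block the sign turned for PER2 on day 5 (-0.10) and for PER1 between days 7 and 3 (-0.013).

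Signs also turned between fits without 1 sample, for differences that were not called: PER2 on day 3 (-0.068 to 0.35), TEF on day 3 (-0.086 to 0.14), CLOCK on day 3 (-0.077 to 0.13), PER1 on day 5 (-0.55 to 0.34) and PER2 on day 5 (-0.11 to 0.20). For the day 7 effect minus the day 3 effect they turned for PER1 (-0.16 to 0.25), CLOCK (-0.069 to 0.14) and NR1D1 (-0.71 to 0.10). Correlations with NR1D1 turned for CLOCK in normoxia without the 2 farthest samples (-0.505). In hyperoxia they turned with day means removed for PER1 (0.527), CRY2 (-0.146), CLOCK (0.157), TEF (-0.43) and NPAS2 (0.0618), and without the 2 farthest samples for CRY1 (-0.0304), CRY2 (-0.271) and TEF (-0.172). The cause was not tested. NR1D1 had 49 to 479 reads a sample, and its spread within groups stood at percentile 95 of rows of similar level.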

Other observations

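Other groups of genes were read beside the clock. Of 10 genes of the glucocorticoid response, 0 were called on day 3, 2 on day 5 (both lower) and 8 on day 7 (6 higher, 2 lower), beside 1.03%, 31.3% and 47.4% of all rows, and 23.7% higher and 23.7% lower on day 7. By DESeq2 it was 1 on day 3, and 2 had an unadjusted p under 0.05 by edgeR that day. The glucocorticoid receptor NR3C1 read 83.7, 134 and 116 CPM in HT7 against 248, 256 and 250 CPM in NT7, without overlap, and was lower, at -1.18 (adjusted p = 1.19e-05 by edgeR). It was also lower on day 5, at -0.59 (adjusted p = 0.00912 by edgeR).

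FKBP5, a receptor co-chaperone induced by glucocorticoids, read 132, 309 and 58.4 CPM in HT3, 23 and 28 CPM in HT5 and 276, 93.7 and 186 CPM in HT7. In normoxia it read 48.5, 34.3 and 29.9 CPM on day 3, 31.9, 26.6 and 35.7 CPM on day 5 and 96.1, 89 and 42.9 CPM on day 7. On day 3 the groups did not overlap, and the difference of 2.15 was not called (adjusted p = 0.056 by edgeR). On day 5 it was -0.30, also not called. HT7 overlapped NT7, and FKBP5 was called on day 7, at 1.28 (adjusted p = 0.0418 by edgeR). TSC22D3, also induced by glucocorticoids, was lower on days 5 and 7, at -0.86 and -1.01 (adjusted p = 0.0463 and 0.00653 by edgeR). Of the others, MT2A, ERRFI1, DUSP1, SGK1 and CEBPD were called higher on day 7, at 3.87, 1.57, 1.25, 0.87 and 0.68 (adjusted p = 0.00109, 0.00259, 0.0439, 0.0413 and 0.00741 by edgeR). MT2A read 788, 94.8 and 323 CPM in HT7 against 36.8, 14.3 and 31.4 CPM in NT7, with HT7 replicate 1 far the highest, and its difference was not recomputed without that sample.

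Of 6 temperature-responsive genes 4 were tested, since body temperature is known to reset peripheral clocks, and 0, 2 and 2 of them were called on days 3, 5 and 7 beside the same shares of all rows. The chaperones HSPH1 and HSPA8 were higher on day 5, at 0.61 and 0.35, and on day 7, at 0.68 and 0.54 (adjusted p = 0.00647, 0.0167, 0.000761 and 0.000213 by edgeR). No temperature was given in the sources used here for these samples. Marker sums over all samples were 2.25 to 45 CPM for 3 heart muscle markers, with 45 CPM in HT3 replicate 2, 38.3 CPM in NT3 replicate 2 and 28.3 CPM in HT5 replicate 1 as the highest, and 0.325 to 6.98 CPM for 2 hepatocyte markers.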
